A study of Mus musculus with 6 samples.

Results

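The miR-29 family is described here in small RNA libraries from mouse embryonic fibroblasts, cultured connective tissue cells of the embryo. Its members were taken by name, as the rows Mir29a, Mir29b-1, Mir29b-2 and Mir29c, which are 4 of the 1155 rows of the count table. There were 3 libraries from cells labelled Fbxw7 KO, in which Fbxw7 was knocked out, and 3 from wild-type (WT) cells, and all were grown in DMEM with serum and sequenced after a TruSeq small RNA preparation. The labels give no age, strain, knockout method or embryo of origin, so whatever the tests below show concerns the variation among these libraries, which could be purely technical. The comparison asks which miRNAs differ between cells without and with Fbxw7. FBXW7 is the part of a ubiquitin ligase that recognises its substrates, among them Myc.

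A miRNA is cut from a hairpin and guides Argonaute to messenger RNAs that pair with its seed, the bases just after its 5′ end. miR-29 is best known in fibroblasts as a repressor of extracellular matrix genes, since collagen, elastin and fibrillin transcripts carry sites for its seed, and TGF-β lowers it when these cells turn to making matrix. It also targets the DNA methyltransferases DNMT3A and DNMT3B and the survival protein MCL1, and Myc is known to repress it. Each of its hairpins can give a guide from the 3′ arm and a less abundant strand from the 5′ arm. The count table holds 1 value per hairpin, with both arms together.

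The hairpins lie in 2 pairs, each made from 1 primary transcript. Mir29a (chr6:31062660-31062747) and Mir29b-1 (chr6:31063023-31063093) are on the minus strand of chromosome 6 with 275 bases between them, on mm10. Mir29b-2 (chr1:195037040-195037120) and Mir29c (chr1:195037547-195037634) are on the plus strand of chromosome 1, with 426 bases between them. In GENCODE M21, Mir29b-1 lies in an exon of the lincRNA gene Gm27019. Mir29b-2 and Mir29c lie in exons of the non-coding transcript A330023F24Rik and overlap, on the other strand, an exon of Cd46. Counting ignored strand, so reads of either strand at these places fall into the same value. No other row of the count table overlaps a member.

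The mature guides are shown because identical guides may bear on how reads of the members were counted. They are given 5′ to 3′ as in RefSeq on GRCm38.p6, with the seed (bases 2 to 8) in capitals.
miR-29a-3p: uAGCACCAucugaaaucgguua
miR-29c-3p: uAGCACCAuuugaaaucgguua
miR-29b-3p, from both Mir29b hairpins: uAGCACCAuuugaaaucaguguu
All 4 hairpins share the seed AGCACCA, and no other mature miRNA in the RefSeq table has it. Counted from 1 at the 5′ end, miR-29a-3p and miR-29c-3p differ at 1 position (C10U). miR-29b-3p differs from miR-29c-3p at 3 of the shared positions (G18A, U21G and A22U) and is 1 base longer.

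The strands from the 5′ arm are less alike. They are shown because they are the parts of the Mir29b hairpins that tell the copies apart, again with bases 2 to 8 in capitals.
miR-29a-5p: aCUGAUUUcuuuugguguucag
miR-29c-5p: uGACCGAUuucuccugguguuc
miR-29b-1-5p: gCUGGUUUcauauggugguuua
miR-29b-2-5p: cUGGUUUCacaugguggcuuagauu
The Mir29b hairpins themselves are printed with the guide in capitals.
Mir29b-1: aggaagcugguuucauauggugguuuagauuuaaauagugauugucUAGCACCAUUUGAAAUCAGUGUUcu
Mir29b-2: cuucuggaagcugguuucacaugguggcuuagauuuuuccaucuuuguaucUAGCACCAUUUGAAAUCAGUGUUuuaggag
The longest stretch that these hairpins share is 25 bases and covers the whole 23-base guide. A read of miR-29b-3p therefore aligns equally well to both places. The recorded counting command does not switch on reads with several alignments, which the program leaves out by default. If the alignments record such reads, the Mir29b rows are no measure of miR-29b-3p, and their values below stand for reads placed at 1 copy. Whether such reads were left out was not tested. The longest stretch shared by Mir29a and Mir29c is 14 bases, and that of Mir29c and Mir29b-1 is 22 bases.

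The messenger RNAs that miR-29 binds were not analysed here, but the sites it can pair with are given to show what its seed reads. The letters TGGTGCT, the reverse complement of the seed, were searched on the transcript strand in the 3′ UTR of 12 genes known as miR-29 targets, 1 GENCODE M21 transcript a gene, and 10 held them at least once. Among 20785 such UTRs 13.2% held them, and their median length was 967 bases, against 1259.5 bases for the 12. The density was 0.965 matches per kilobase in the 12 and 0.106 in all. The longer letters TGGTGCTA, which hold the first motif and add an A, were found in 8 of the 12 and in 2.87% of all UTRs. Col1a2 and Sparc held neither in the transcripts used. The genes were picked as known targets, so these counts describe them and test nothing.

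The sites of the main fibrillar collagens, of elastic fibre proteins, of a DNA methyltransferase and of MCL1 are printed as examples, the first 8-letter match of each gene in capitals, on the transcript strand of mm10.
Col1a1, collagen I chain, chr11:94952522-94952551, plus strand: ggtgggaaggaatttcTGGTGCTAtagaag
Col3a1, collagen III chain, chr1:45348966-45348995, plus strand: cttcaaaatgtctcaaTGGTGCTAtaataa
Fbn1, fibrillin, chr2:125301167-125301196, minus strand: gtttctgttgtctgttTGGTGCTAgtaaat
Eln, elastin, chr5:134703730-134703759, minus strand: gcgacctcatcaacgtTGGTGCTActgctt
Dnmt3a, DNA methyltransferase, chr12:3911389-3911418, plus strand: gcccaggggaggtagcTGGTGCTAgcacca
Mcl1, survival protein, chr3:95661843-95661872, plus strand: gctagagtcttaaccaTGGTGCTAttcact
The first 7 capitals pair with bases 2 to 8 of every 3′ guide shown above, and the C10U difference lies outside them.

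The libraries held 2932439 to 3753353 counts in Fbxw7 KO and 3707576 to 5019700 in WT. Fbxw7 KO replicate 3 stood apart from replicates 1 and 2 on the second principal component (scores −6.24 against 2.89 and 3.50, 18.0% of the variance), and the Mir29a comparison described next gave 0.61 on the log2 scale without it (edgeR adjusted p = 0.00474). The Fbxw7 transcript was not analysed here. Fibroblast and mesenchymal miRNAs held 59.8% ± 1.88 of counts in Fbxw7 KO and 57.6% ± 0.742 in WT, with 1 of 14 rows at 0. Most of this share came from Mir21a and Mir143, named after their values were seen, in both genotypes. Of other cell types, the muscle list held 0.0213% to 0.0405% in Fbxw7 KO and 0.0136% to 0.0227% in WT (4 of 5 rows at 0). The epithelial list held 0.00168% to 0.00618% in Fbxw7 KO and 0.00211% to 0.00262% in WT (0 of 7 rows at 0). Blood cell and neuronal lists held at most 0.000438% in any library (3 of 7 and 3 of 6 rows at 0), and both endothelial rows, Mir126a and Mir126b, were at 0. A row at 0 need not mean an absent miRNA: 60 of the 72 rows that overlap another row were at 0 (83.3%), against 424 of the other 1083 (39.2%), and the recorded command does not switch on reads that overlap several rows. Both endothelial rows overlap each other, and the fibroblast row at 0, Mir22, overlaps its host gene, so the endothelial list gives no reading of those cells. Another row also overlaps 2 of the 3 blood rows at 0 (Mir142 and Mir155) and 2 of the 3 neuronal ones (Mir124a-1 and Mir124a-2). In muscle this holds for 1 of the 4 rows at 0 (Mir1a-2). The shares of these lists may thus leave out reads of such rows. Fewer cells of a type and less RNA per cell cannot be told apart in such bulk samples.

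Mir29a held nearly all counts of the family and was higher in cells without Fbxw7. It had 19454.5, 21922 and 21398 CPM (counts scaled to a common library total) in Fbxw7 KO replicates 1 to 3, against 14573, 13466 and 12898 CPM in WT replicates 1 to 3. Every Fbxw7 KO library lay above every WT library. The means were 20925 ± 1300.1 CPM in Fbxw7 KO and 13645 ± 852 CPM in WT (SD, n = 3 each), a fold of 1.53. The log2 fold change was 0.62 (SE 0.12, 95% interval 0.34 to 0.89, edgeR quasi-likelihood test, adjusted p = 0.00788 over the 283 rows tested). Without Fbxw7 KO replicate 2, its highest library, the log2 fold change was 0.55 and the adjusted p was 0.0512.

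Of the 4 members 3 passed the filter on low counts, and 1 of these 3, Mir29a, passed the test, as higher. Over all 283 tested rows 25.4% passed the test in either direction, 15.2% as higher and 10.2% as lower, and 1 call among 3 members is too few to set the family apart from these shares. The genotypes did not overlap in 43.8% of the tested rows, with all Fbxw7 KO libraries above all WT libraries in 23.7%, and in the family this held for Mir29a alone of the tested members. The log2 fold change was above 0 in all 3 tested members and in 53.4% of the tested rows. By size, 46 tested rows had a larger log2 fold change than Mir29a. By level, Mir29a stood 13th of the 1155 rows in mean CPM. Of the 15 tested rows with a mean of at least 10000 CPM, a limit chosen after the values were seen, only Mir29a passed as higher. Only Mir10a, a Hox cluster miRNA, passed as lower. The others did not pass, which does not show that they were unchanged. Among them Mir434 stood at −0.56 (edgeR adjusted p = 0.0737) and Mir10b at 0.27 (adjusted p = 0.275). Mir10a and Mir434 are named after their values were seen.

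**Figure D1:**
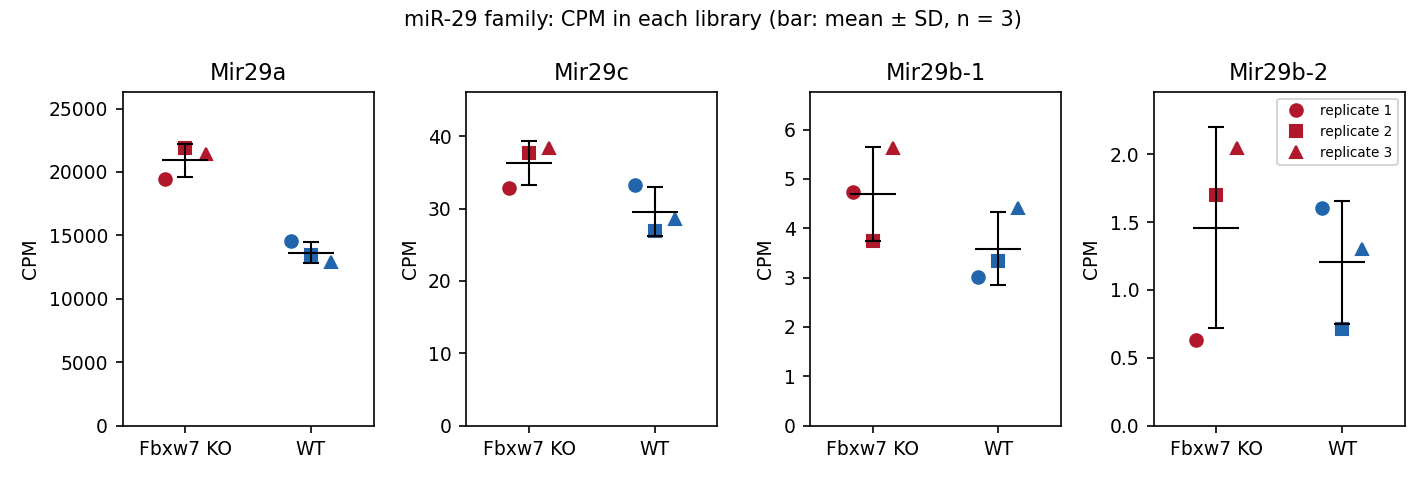
CPM of Mir29a, Mir29c, Mir29b-1 and Mir29b-2 (1 panel each, linear axis from 0) in the 3 Fbxw7 KO and 3 WT libraries, with replicates 1, 2 and 3 as circle, square and triangle and the mean ± SD as bars. For Mir29a the Fbxw7 KO libraries, at 19454.5 to 21922 CPM, all lie above the WT libraries, at 12898 to 14573 CPM, and in the other panels the genotypes overlap.

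The coefficient of variation of Mir29a between libraries was 6.21% in Fbxw7 KO and 6.24% in WT, against medians over the tested rows of 16.7% in Fbxw7 KO and 14.8% in WT, most of which had far lower counts. Among the 6 rows nearest to it in level the values ran from 0.59% to 20.05% in Fbxw7 KO and from 4.27% to 21.4% in WT, so its spread was not particular to it. Its counts summed to 209744 over the Fbxw7 KO libraries (exact Poisson 95% interval 208847 to 210644, which covers counting error only) and to 178896 over the WT libraries (178068 to 179727). Counting error was thus small beside the spread between libraries.

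Mir29c, the distal member of the chromosome 1 pair, stood far below Mir29a although its guide differs from that of Mir29a by a single base. It had 32.8, 37.7 and 38.4 CPM in Fbxw7 KO replicates 1 to 3, against 33.3, 26.9 and 28.6 CPM in WT replicates 1 to 3. Fbxw7 KO replicate 1 lay below WT replicate 1, so the genotypes overlapped. The means were 36.3 ± 3.06 CPM in Fbxw7 KO and 29.6 ± 3.34 CPM in WT (SD, n = 3 each). The log2 fold change was 0.29 (SE 0.18, edgeR adjusted p = 0.255), and its 95% interval of −0.11 to 0.70 takes in both no difference and the value of Mir29a.

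Mir29b-1, the neighbour of Mir29a, was represented by few reads. It had 15, 11 and 22 counts in Fbxw7 KO replicates 1 to 3, against 15, 14 and 17 counts in WT replicates 1 to 3. On the CPM scale these were 4.73, 3.74 and 5.64 in Fbxw7 KO, against 3.01, 3.33 and 4.42 in WT, and the ranges overlapped. The log2 fold change was 0.42 (SE 0.30, 95% interval −0.27 to 1.10, edgeR adjusted p = 0.335). The counts thus allow anything from a small fall to a rise larger than that of Mir29a.

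Mir29b-2, which shares its primary transcript with Mir29c, did not pass the filter on low counts and was not tested. It had 2, 5 and 8 counts in Fbxw7 KO replicates 1 to 3, against 8, 3 and 5 counts in WT replicates 1 to 3. The sums were 15 counts in Fbxw7 KO (exact Poisson 95% interval 8.4 to 24.7) and 16 counts in WT (9.15 to 26.0). The ratio of shares, Fbxw7 KO over WT, was 1.27 with a 95% interval of 0.58 to 2.74 for counting error only. A difference between the genotypes was not detectable at these counts.

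Set side by side per length, the members differed far more from each other than between genotypes. Mir29a had 239634 ± 12497 FPKM (the length-scaled values the authors deposited) in Fbxw7 KO and 153968 ± 13125 FPKM in WT. Mir29c had 416 ± 32.7 FPKM in Fbxw7 KO and 334 ± 47.8 FPKM in WT. Mir29b-1 followed with 66.9 ± 14.3 FPKM in Fbxw7 KO and 50.1 ± 10.4 FPKM in WT, and Mir29b-2 with 18.1 ± 9.17 FPKM in Fbxw7 KO and 14.9 ± 5.98 FPKM in WT (SD, n = 3 each). The order Mir29a, Mir29c, Mir29b-1, Mir29b-2 was the same in both genotypes, and neighbours in it did not overlap. If reads of the shared guide were left out of the Mir29b rows, which was not tested, the last 2 places give no order for miR-29b itself.

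**Figure D2:**
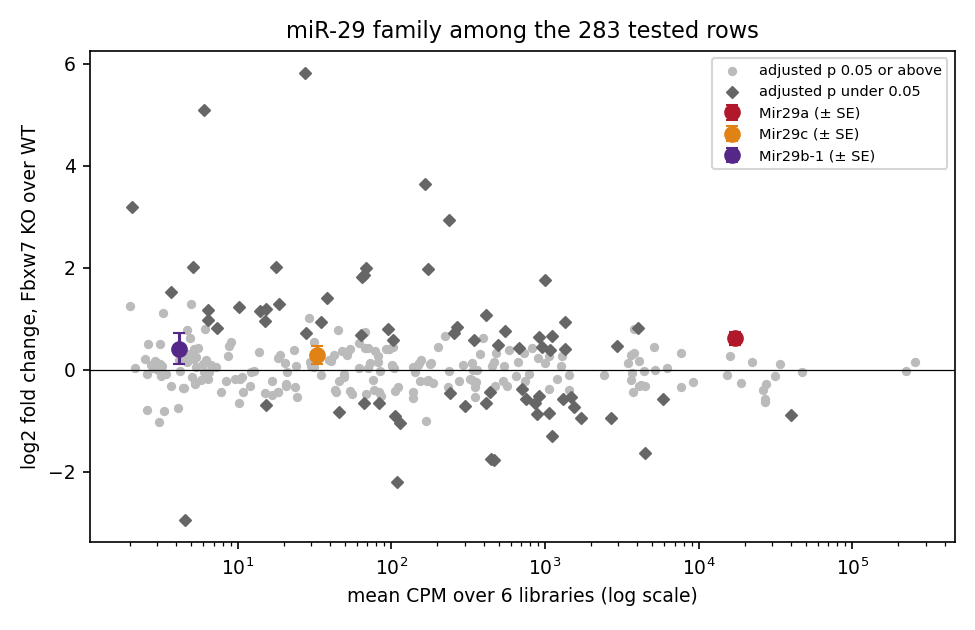
Log2 fold change, Fbxw7 KO over WT, against mean CPM over the 6 libraries (log scale) for the 283 tested rows, with diamonds for adjusted p under 0.05, grey circles for the rest, and the tested miR-29 members in colour with ± SE. Mir29a (0.62) lies among the most abundant rows, and Mir29c (0.29) and Mir29b-1 (0.42) lie above 0 within the cloud of rows that did not pass.

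Together the 4 rows held 2.13% ± 0.145 of all counts in Fbxw7 KO and 1.35% ± 0.104 in WT (SD, n = 3 each). The share was 1.97%, 2.21% and 2.23% in Fbxw7 KO replicates 1 to 3, against 1.45%, 1.24% and 1.34% in WT replicates 1 to 3. Mir29a made up 99.8% of the family's counts in Fbxw7 KO and 99.7% in WT, so the summed level is in effect that of Mir29a. Whether reads of miR-29b-3p are in this sum was not tested.

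Ratios within a library do not depend on how libraries are scaled, and 3 were compared. The log2 ratio of Mir29a to Mir29c was 9.20, 9.18 and 9.12 in Fbxw7 KO replicates 1 to 3, against 8.77, 8.96 and 8.81 in WT replicates 1 to 3. The genotypes did not overlap, and the mean difference was 0.32 (SE 0.06). An exact two-sided permutation test gave p = 0.1, below which a design of 3 against 3 cannot go, and 0.3 after Benjamini-Hochberg adjustment over the 3 ratios. Written as a share, Mir29c amounted to 0.169%, 0.172% and 0.180% of Mir29a in Fbxw7 KO and to 0.229%, 0.199% and 0.222% in WT. These guides differ only by C10U, and the number of mismatches allowed in alignment is not stated in the labels or headers, so the Mir29c counts are less certain than their size alone would make them.

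The ratio between hairpins of 1 primary transcript overlapped between the genotypes in both pairs. With 3 against 3 libraries the permutation test cannot go below p = 0.1, so neither ratio could have passed a threshold of 0.05. For Mir29a to Mir29b-1 the log2 ratio averaged 12.1 ± 0.319 in Fbxw7 KO and 11.9 ± 0.367 in WT, a difference of 0.23 (SE 0.28, exact permutation p = 0.5, adjusted p = 0.75). For Mir29c to Mir29b-2 it averaged 4.62 ± 0.666 in Fbxw7 KO and 4.55 ± 0.410 in WT, a difference of 0.08 (SE 0.45, exact permutation p = 0.8, adjusted p = 0.8). The direction of the last one depended on the offset and on single libraries, being −0.30 when Fbxw7 KO replicate 1 was dropped, −0.05 when WT replicate 1 was dropped and −0.03 when WT replicate 3 was dropped. Both ratios carry the counting error of the Mir29b rows.

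**Figure D3:**
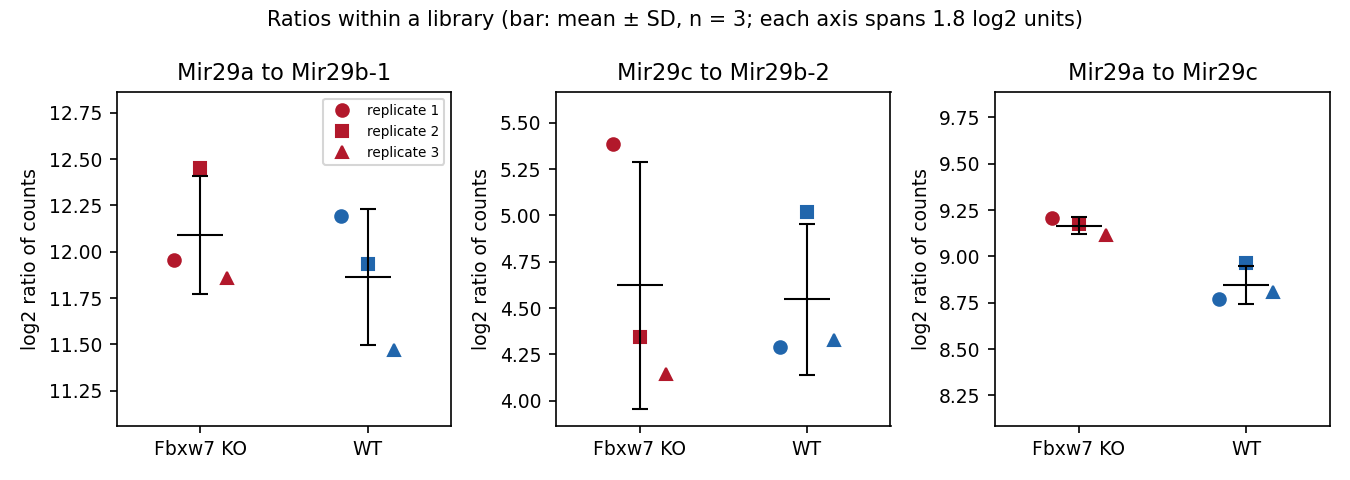
Log2 ratio of counts within each library, with an offset of 0.5 counts, for Mir29a to Mir29b-1, Mir29c to Mir29b-2 and Mir29a to Mir29c, in Fbxw7 KO and WT (bars: mean ± SD, n = 3; every axis spans the same number of log2 units). Mir29a to Mir29c separates Fbxw7 KO (9.12 to 9.20) from WT (8.77 to 8.96), and the other ratios overlap.

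The rows nearest to Mir29a in mean CPM were Mir100, Mirlet7g and Mir411 above it and Mir10b, Mir99b and Mir30d below it, and none of these 6 passed the edgeR test (adjusted p 0.085 to 0.57). In Fbxw7 KO the mean ± SD of Mir29a in FPKM overlapped those of 4 of them, such as Mir10b (260162 ± 23111) and Mirlet7g (269324 ± 31728), let-7 being a family that limits growth genes. In WT it overlapped none of the 6, and lay below Mir10b (211344 ± 42244) and Mirlet7g (237552 ± 24454) and above Mir30d (120526 ± 2900).

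The rows most like Mir29a were those with the highest Pearson correlation of log2(CPM + 1) with it over the 6 libraries, among 216 tested rows with a mean of at least 10 CPM. They were Mir186 (r = 0.99), Mir339 (0.99), Mir23a (0.98), Mir672 (0.97) and Mir210 (0.97), where Mir210 is the miRNA that hypoxia-inducible factors raise. The 6 libraries share the genotype contrast, so rows that differ between genotypes correlate with Mir29a through it, and 26 rows reached r of at least 0.9. Mir29c had r = 0.89 with Mir29a. The most similar of them, Mir186, had 1102 ± 35.1 CPM in Fbxw7 KO and 807 ± 16.2 CPM in WT (log2 fold change 0.45, edgeR adjusted p = 0.0178), a call that ended in 5 of 15 alternatives. Mir339 had 78.2 ± 2.40 CPM in Fbxw7 KO and 48.5 ± 6.40 CPM in WT (0.69), and Mir23a had 3404 ± 271 CPM in Fbxw7 KO and 2476 ± 80.0 CPM in WT (0.46). The other 2 differed far more, Mir672 with 307 ± 40.4 CPM in Fbxw7 KO and 24.5 ± 10.2 CPM in WT (3.64) and Mir210 with 423 ± 156 CPM in Fbxw7 KO and 55.3 ± 15.0 CPM in WT (2.93).

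Other miRNAs with known roles in matrix and fibrosis were read from a list. Of 25 listed repressors of matrix genes or of TGF-β signalling outside the miR-29 family, 20 had a row, 3 of these were at 0 and 10 were tested. Of these 1 rose, 0 fell and 9 did not pass, with a median log2 fold change of 0.22 against 0.05 over all tested rows. Over all tested rows 15.2% rose and 10.2% fell, so 1 of 10 is no larger a share. The 1 that rose was Mir101b, with 1226 ± 60.2 CPM in Fbxw7 KO and 943 ± 12.2 CPM in WT (0.38, SE 0.11, edgeR adjusted p = 0.037), a call that ended in 9 of 15 alternatives (adjusted p up to 0.143). Its relative Mir101a, with a guide close to that of Mir101b, went the other way at −0.37 without passing (adjusted p = 0.126) and is named after its value was seen.

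Of 11 listed promoters of fibrosis 8 had a row and 6 were tested, of which 2 rose, 0 fell and 4 did not pass (median log2 fold change 0.22), beside 15.2% of all tested rows that rose. With 6 members tested this count sets the list apart in no way. Mir199b, found in fibrotic tissue and antisense to a dynamin gene, had 1359 ± 219 CPM in Fbxw7 KO and 864 ± 133 CPM in WT (0.65, SE 0.17, adjusted p = 0.0203). Its call ended in 2 of 15 alternatives, without Fbxw7 KO replicate 2 or without WT replicate 2 (adjusted p up to 0.0736). Mir34a, a p53 target, had 583 ± 21.6 CPM in Fbxw7 KO and 415 ± 65.6 CPM in WT (0.49, SE 0.14, adjusted p = 0.0365, ended in 6 of 15 alternatives). Mir21a, the most abundant of the tested rows and a promoter of fibroblast activation, did not pass at 0.15 on the log2 scale (edgeR adjusted p = 0.338). This row is named after its value was seen.

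Of 33 listed miRNAs that Myc represses besides miR-29, 26 were tested, of which 4 rose, 1 fell and 21 did not pass (median log2 fold change 0.11). Of all tested rows 25.4% passed in either direction, 15.2% as higher and 10.2% as lower. The 4 of 26 that rose are close to that 15.2%, so this count does not set the list apart. Those that rose were Mir195a (1.30, adjusted p = 0.0169), Mir23a (0.46, adjusted p = 0.0251), Mir34a (0.49, adjusted p = 0.0365) and Mir15a (0.72, adjusted p = 0.0415), and Mirlet7a-2 fell (−0.38, edgeR adjusted p = 0.0419). Mir15a lost its call in 8 of 15 alternatives, Mir23a in 4, Mirlet7a-2 in 10 and Mir195a in 1, without WT replicate 1. Mir195a was a low-abundance row, at 26.3 ± 7.30 CPM in Fbxw7 KO and 10.8 ± 4.11 CPM in WT.

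Of 10 listed miRNAs known to repress DNA methyltransferases besides miR-29, 8 were tested, of which 2 rose, 0 fell and 6 did not pass (median log2 fold change 0.20). Of all tested rows 25.4% passed and 15.2% rose, and 2 of 8 is close to these shares. They were Mir101b, given above, and Mir148b, with 1527 ± 102 CPM in Fbxw7 KO and 1157 ± 99.6 CPM in WT (0.40, SE 0.13, edgeR adjusted p = 0.0465). The Mir148b call ended in 12 of 15 alternatives (adjusted p up to 0.134). Over the 4 lists, Fbxw7 KO replicate 2 was 1 of the libraries whose removal ended the calls of Mir101b, Mir199b, Mir34a, Mir23a, Mirlet7a-2 and Mir148b. Removing WT replicate 2 ended these and that of Mir15a. Without WT replicate 1 the calls of Mir101b, Mir15a, Mir195a, Mir23a, Mirlet7a-2 and Mir148b ended. Without Fbxw7 KO replicate 1 those of Mir101b, Mir34a, Mir15a, Mirlet7a-2 and Mir148b ended. Those of Mir34a, Mir15a and Mir148b ended without WT replicate 3, and those of Mir15a and Mir148b without Fbxw7 KO replicate 3. The lists share members, so their counts are not independent.

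**Figure D4:**
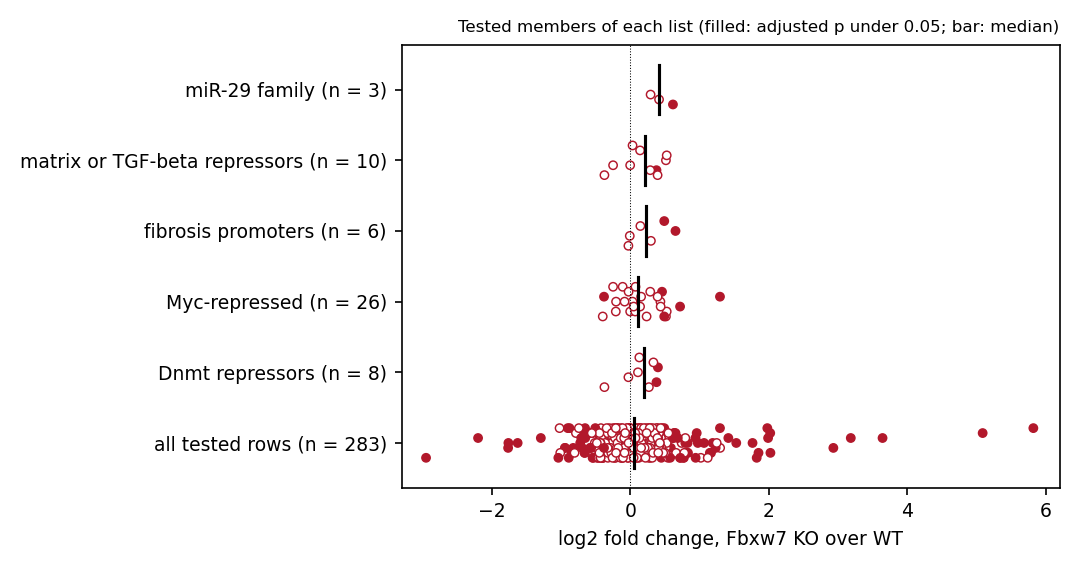
Log2 fold change, Fbxw7 KO over WT, of the tested members of the miR-29 family, of 4 lists and of all 283 tested rows, with filled points for adjusted p under 0.05 and a bar at the median. The medians of the lists (0.11 to 0.22) lie near that of all rows (0.05), and Mir29a is the filled point of its family at 0.62.

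**Figure D5:**
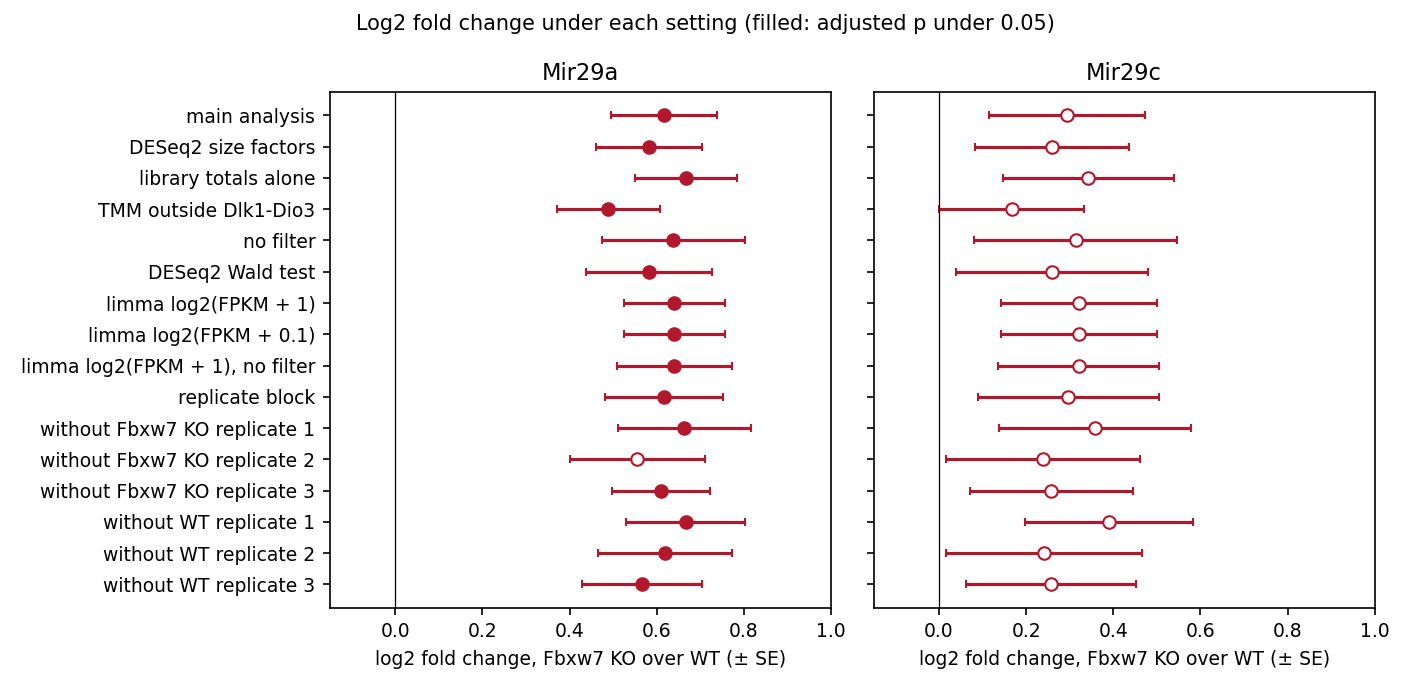
Log2 fold change ± SE, Fbxw7 KO over WT, of Mir29a and Mir29c in the main analysis and under 15 alternatives, with filled points for adjusted p under 0.05. Mir29a stays between 0.49 and 0.67 and loses its call without Fbxw7 KO replicate 2, and Mir29c stays between 0.17 and 0.39 and passes in none of them.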

How the data were processed

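Small RNA of 3 Fbxw7 KO and 3 WT fibroblast libraries was read as 2 deposited tables. The authors made whole-number counts per miRNA gene name with featureCounts 1.6.4, strand ignored, per the file headers. Per the submitters' processing notes the build was mm10, with TopHat2 2.1.1, SAMtools 1.5, Cufflinks 2.2.1 and deepTools. For trimming and mismatch limits, the sources used here state nothing. The FPKM values deposited by the authors equal the counts per length and TMM-scaled total in all 1155 rows (relative difference under 1e-06). The main test was edgeR 4.0.16 under R 4.3.3 on the counts (TMM, filterByExpr with a minimum count of 10 and total of 15, robust glmQLFit, glmQLFTest, two-sided, genotype only, Benjamini-Hochberg over 283 rows, threshold 0.05). The SE comes from the F statistic. DESeq2 1.42.0 and limma 3.58.1 on log2(FPKM + 1) or log2(FPKM + 0.1) were alternatives. The test was checked on simulated counts. Intervals on counts cover counting error only. Named rows are the 4 members, the 3 nearest rows by mean CPM on either side, the 5 most correlated, and up to 6 called members of a list, plus rows said to be picked afterwards, Mir10a, Mir101a and Mir21a among them. Members and lists were chosen with earlier results of these data known.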

Additional observations from a re-analysis of the deposited data

How the results depend on the processing

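Of 15 alternatives for Mir29a, 14 kept it higher and past the threshold, with log2 fold changes of 0.49 (TMM factors from rows outside the Dlk1-Dio3 cluster) to 0.67 (library totals alone). The exception was leaving out Fbxw7 KO replicate 2, at 0.55 (edgeR adjusted p = 0.0512), and leaving out 1 library gave 0.55 to 0.67 in all. Mir29c and Mir29b-1 stayed positive and short of the threshold in all 15. Mir29b-2, untested, ranged from −0.05 without Fbxw7 KO replicate 3 to 0.64 without Fbxw7 KO replicate 1. The difference in Mir29c to Mir29b-2, 0.08, was −0.017 with an offset of 5 counts and −0.30 to 0.32 over the leave-outs. The rows called, 72, were 34 to 78 over the leave-outs (34 without Fbxw7 KO replicate 2, 35 without WT replicate 2, 42 without WT replicate 1). TMM factors from outside the Dlk1-Dio3 cluster moved the median of all tested rows to −0.07, against 0.05, and called 30 higher and 34 lower in place of 43 and 29. The causes were not tested.

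Whether replicate numbers pair the libraries is not known from the labels. Same-numbered deviations correlated at −0.06, 0.13 and 0.15 and differently numbered ones at −0.17 to 0.15, which cannot decide it with 3 libraries per genotype. With a replicate block Mir29a stood at 0.62 (edgeR adjusted p = 0.0114), and 76 rows were called. The Mir29b rows held at most 22 counts in a library, and why they held so few was not tested.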

Other observations

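Mir29b-1 and Mir29b-2 belong to 86 rows of the count table whose mature sequence is also made by another gene in RefSeq. Of these 86 rows 35 were at 0 in every library and 35 passed the filter on low counts (40.7%), with a median of 0.357 CPM. Of the other 888 rows with a mature sequence in RefSeq, 338 were at 0 and 220 passed (24.8%), with a median of 0.137 CPM. The level each row would have with all its reads is not known, so whether reads of shared guides were left out was not tested. Some copies that share a guide differed widely in level, and the examples here were chosen after their values were seen. Others stood closer, such as Mirlet7f-1 and Mirlet7f-2, with means of 138 and 173 CPM over the 6 libraries. The pairs given next are of the first kind. Mir26a-1 and Mir26a-2, copies that give the same miR-26a guide, had 3.72 ± 0.386 and 72.9 ± 14.9 CPM in Fbxw7 KO and 2.54 ± 0.807 and 50.6 ± 6.06 CPM in WT, while Mir26b had 3636 ± 277 CPM in Fbxw7 KO and 3294 ± 305 CPM in WT (SD, n = 3 each). Mir125b-1 and Mir125b-2, copies that give the same miR-125b guide, had 4363 ± 517 and 302 ± 28.9 CPM in Fbxw7 KO and 3891 ± 1050.0 and 282 ± 52.4 CPM in WT.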
